A study of Mus musculus with 35 samples.

Results

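Bone marrow monocytes were compared with spleen granulocytes on 10 of the 35 Affymetrix Mouse430_2 arrays of a survey of flow-sorted mouse immune cells. The monocyte side held 4 bone marrow arrays, 2 of inflammatory monocytes and 2 of SatM (segregated-nucleus-containing atypical monocytes), a monocyte type that the labels connect with fibrosis. The granulocyte side held 6 spleen arrays, 2 each of neutrophils, basophils and eosinophils. All mice were C57BL/6J males, 8 weeks old, with no treatment or genetic change named for these groups. Arrays were assigned by their titles and labelled tissues, and a gene was kept for description where all 4 monocyte arrays lay above, or all below, all 6 granulocyte arrays, as held for 1990 of 12077 tested genes. Tissue and cell type move together in this comparison, so a difference between marrow and spleen and a difference between monocytes and granulocytes cannot be told apart. The labels do not say whether the 2 arrays of a cell type came from separate mice, so the spread between them may be technical.

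Monocytes and granulocytes arise from shared myeloid progenitors in the marrow and divide the work of innate defence. Monocytes circulate, take up particles and dying cells, present antigen on MHC class II and can become macrophages, and their development depends on the transcription factors KLF4 and IRF8 and on the growth factor receptor CSF1R. Neutrophils carry granules of antimicrobial proteins. Basophils bind IgE and release histamine, and eosinophils store basic proteins and a peroxidase and depend on IL-5. These arrays report relative mRNA levels per sorted sample, so fewer expressing cells and less RNA per cell cannot be told apart.

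The values are log2 expression values, and the lowest value of every array was a shared floor of 2.297. On these 10 arrays between 46.5% and 49.5% of probe sets were at that floor, the median lay between 2.31 and 2.39, and the upper quartile between 6.09 and 6.50. Across genes, Pearson's r was 0.996 between the inflammatory monocyte arrays, 0.973 between the SatM arrays and 0.937 to 0.941 between those types. It was 0.789 to 0.837 between monocyte and granulocyte arrays, 0.765 to 0.828 between neutrophils and the other granulocytes, and 0.889 to 0.907 between basophils and eosinophils. Genes are not independent replicates, and these coefficients only describe the arrays. The range between neutrophils and the other granulocytes thus overlapped the range between monocytes and granulocytes.

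Monocyte markers set the 4 marrow arrays apart from all 6 granulocyte arrays. Klf4 measured 11.48 and 11.48 in inflammatory monocytes and 12.90 and 13.35 in SatM, against 2.82 and 4.44 in neutrophils, 7.60 and 7.58 in basophils and 4.11 and 4.81 in eosinophils. Ms4a6c measured 12.75 and 12.62 in inflammatory monocytes and 12.24 and 11.94 in SatM, against 2.91 and 2.74 in neutrophils, 9.47 and 8.64 in basophils and 6.69 and 6.14 in eosinophils. Klf4 encodes the monocyte transcription factor and Ms4a6c a membrane protein of the MS4A family. Levels of both were intermediate in basophils, but no granulocyte array reached any monocyte array. Pld4 measured 12.16 and 11.98 in inflammatory monocytes and 12.48 and 12.67 in SatM, against 2.30 and 2.64 in neutrophils, 5.85 and 4.65 in basophils and 3.14 and 3.17 in eosinophils. Cx3cr1 measured 10.47 and 10.63 in inflammatory monocytes and 11.47 and 11.47 in SatM, against 3.94 and 4.21 in neutrophils, 3.87 and 3.87 in basophils and 3.94 and 2.79 in eosinophils. Pld4 encodes an endolysosomal exonuclease and Cx3cr1 the fractalkine receptor. The differences, marrow monocytes minus granulocytes throughout, were 7.07 ± 0.51 (SE; adjusted p = 2.05e-07) for Klf4, 6.29 ± 0.21 (SE; adjusted p = 2.8e-10) for Ms4a6c, 8.70 ± 0.39 (SE; adjusted p = 3.32e-09) for Pld4 and 7.24 ± 0.23 (SE; adjusted p = 2.23e-10) for Cx3cr1. These 4 genes were the markers named for the monocytes, so their direction checks the labels and is not a separate result.

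The promoters of 3 of these markers are shown because the genes moved together and their start regions can be read beside the levels. Each is a 300-base window around the annotated start, from RefSeq on build GRCm38.p6. The RefSeq promoters of 754 of the 935 genes called higher and not overlapping were searched on both strands, as were those of 601 of the 741 called lower. The core of sites for the myeloid factor PU.1 was spelled GAGGAA. The core of KLF sites was spelled CACCC. The C/EBP motif was spelled TTNNGNAA. The GATA motif was spelled AGATAA. Capitals mark matches to any of them on either strand, and no motif contains another. Ms4a6c lies at chr19:11469118-11469417 on the plus strand with 2 C/EBP matches, Pld4 at chr12:112760405-112760704 on the plus strand with 1 PU.1 and 2 KLF matches, and Cx3cr1 at chr9:120068247-120068546 on the minus strand with 2 KLF matches.
Ms4a6c: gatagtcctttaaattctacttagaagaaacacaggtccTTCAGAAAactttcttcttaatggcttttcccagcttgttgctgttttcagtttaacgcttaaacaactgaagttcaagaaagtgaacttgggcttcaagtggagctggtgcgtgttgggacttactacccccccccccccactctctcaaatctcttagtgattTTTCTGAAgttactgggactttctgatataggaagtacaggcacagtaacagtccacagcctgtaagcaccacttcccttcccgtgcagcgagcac
Pld4: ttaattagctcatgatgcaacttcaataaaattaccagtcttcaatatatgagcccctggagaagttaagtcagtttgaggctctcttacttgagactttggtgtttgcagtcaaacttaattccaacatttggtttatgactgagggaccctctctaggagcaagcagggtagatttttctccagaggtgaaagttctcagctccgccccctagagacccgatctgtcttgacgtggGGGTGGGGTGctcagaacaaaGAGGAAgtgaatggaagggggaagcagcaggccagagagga
Cx3cr1: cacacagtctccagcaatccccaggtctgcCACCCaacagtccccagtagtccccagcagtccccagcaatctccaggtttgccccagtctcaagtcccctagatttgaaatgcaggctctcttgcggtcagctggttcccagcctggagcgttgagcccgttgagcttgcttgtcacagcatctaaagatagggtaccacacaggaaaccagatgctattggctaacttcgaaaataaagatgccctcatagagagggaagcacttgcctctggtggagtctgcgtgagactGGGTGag

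The Klf4 promoter window held none of the 4 motifs. The PU.1 motif was in 32.95% of the 953 promoters of genes called higher and 27.85% of the 790 promoters of genes called lower, against 26.78% of the 12481 promoters of all tested genes and 28.28% of all 32851 promoters in the table. The KLF motif was in 63.69% of the promoters called higher and 63.8% of those called lower, against 63.25% of tested and 57.52% of all promoters. The C/EBP motif was in 31.37% and 31.9%, against 32.04% and 40.68%, and the GATA motif in 5.56% and 7.59%, against 6.73% and 11.18%. A match is a run of letters and not a known site, and no test was made of these shares.

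Over 12077 tested genes, 1872 (15.5%) were called higher and 1911 (15.8%) lower in marrow monocytes, 31.3% in all. A call was an adjusted p under 0.05 from limma and a log2 difference of at least 1, a 2-fold difference. The median difference over all tested genes was -0.02. All 4 monocyte arrays lay above all 6 granulocyte arrays for 1090 genes (9.03%) and below them for 900 (7.45%), 16.5% in all, and 1676 of these 1990 genes were also called (13.9%), 935 higher (7.74%) and 741 lower (6.14%). Lack of overlap chose these genes, so their p values, taken from the same arrays, are given as a description. A further 937 genes called higher and 1170 called lower had arrays that overlapped. Counts of list members called below stand beside the 15.5% of all tested genes called higher and 15.8% called lower. Counts without overlap stand beside 9.03% above and 7.45% below. Among genes with a mean over 6 in either group, the gene just inside the rule was Zfp52 (gap 0.00177) on the upper side and Il1r2 (gap 4e-05) on the lower side, and just outside were Mpg and Sycp2, with gaps of 0.0.

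The p values measure the spread between replicate arrays of fixed cell types. The fit also held marrow progenitor arrays, cMoP and SMP among them, so this spread did not come from the 5 compared types alone. Fitted to the 10 compared arrays alone, limma called 3907 genes, 1946 higher and 1961 lower. Only 2 monocyte types stood against 3 granulocyte types, and with cell type as a random block limma called 310 genes, 183 higher (1.52%) and 127 lower (1.05%), 2.57% of those tested. All 310 were among the genes whose arrays did not overlap. The 3 granulocyte types also differed from each other: 6214 genes (51.5%) passed the moderated F test among them with a range of type means of at least 1.

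The gap between the nearest arrays of the 2 sides was at least 1 for 330 genes above and 228 below, and at least 3 for 86 and 44. The widest gap of the upper side was that of Nupr1, a small stress-induced nuclear protein gene, at 6.77. Nupr1 measured 11.52 and 11.55 in inflammatory monocytes and 12.79 and 12.86 in SatM, against 2.94 and 3.15 in neutrophils, 4.25 and 4.75 in basophils and 2.94 and 3.81 in eosinophils. Lrp1 measured 11.62 and 11.53 in inflammatory monocytes and 11.27 and 11.37 in SatM, against 4.24 and 4.36 in neutrophils, 4.49 and 2.77 in basophils and 4.16 and 4.57 in eosinophils. Plxnb2 measured 9.54 and 9.56 in inflammatory monocytes and 10.02 and 10.27 in SatM, against 2.30 and 2.40 in neutrophils, 3.13 and 2.52 in basophils and 2.52 and 2.52 in eosinophils. Lrp1 encodes a large endocytic receptor and Plxnb2 a semaphorin receptor. The differences were 8.54 ± 0.36 (SE; adjusted p = 1.74e-09), 7.35 ± 0.42 (SE; adjusted p = 2.44e-08) and 7.29 ± 0.20 (SE; adjusted p = 7.49e-11), with SatM the higher monocyte type for Nupr1 and Plxnb2 and no granulocyte array above 4.75.

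Other genes with the widest upper gaps encode signalling and membrane proteins. Flt1 measured 7.95 and 8.29 in inflammatory monocytes and 8.45 and 8.51 in SatM, against 2.30 and 2.30 in neutrophils, 2.32 and 2.30 in basophils and 2.30 and 2.32 in eosinophils. Flt1 encodes a VEGF receptor, and all 6 granulocyte arrays were at or next to the floor, so its difference of 6.00 ± 0.10 (SE; adjusted p = 8.96e-13) may understate the change. Ptpro measured 12.54 and 12.83 in inflammatory monocytes and 12.18 and 11.96 in SatM, against 2.66 and 2.76 in neutrophils, 6.62 and 3.79 in basophils and 2.66 and 2.66 in eosinophils. Ptpro encodes a receptor tyrosine phosphatase, and its difference was 8.85 ± 0.52 (SE; adjusted p = 3.41e-08), with 1 basophil array higher than the other granulocyte arrays. Zfyve9, which encodes an adaptor of TGF-beta receptors (7.08, adjusted p = 2.2e-09), Pid1 (6.96, adjusted p = 8.82e-10), Ldlrad3, an LDL receptor domain gene (6.61, adjusted p = 1e-09), Cd180, a Toll-like receptor relative (6.17, adjusted p = 3.44e-07), and Tbc1d9 (6.44, adjusted p = 4.37e-08) completed the 12 widest upper gaps with Cx3cr1 and Pld4.

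On the lower side the widest gap belonged to Hdc, which encodes the enzyme that makes histamine. Hdc measured 5.10 and 4.54 in inflammatory monocytes and 5.70 and 6.86 in SatM, against 13.85 and 13.79 in neutrophils, 13.58 and 13.57 in basophils and 12.97 and 13.26 in eosinophils. High Hdc was thus a property of neutrophil and eosinophil arrays as well as basophil arrays, and its difference was -7.95 ± 0.27 (SE; adjusted p = 2.8e-10). Aqp9 measured 2.499 and 2.30 in inflammatory monocytes and 3.32 and 4.45 in SatM, against 10.43 and 10.34 in neutrophils, 11.16 and 10.82 in basophils and 10.45 and 10.01 in eosinophils. Aqp9 encodes a channel for water and small solutes, and its difference was -7.39 ± 0.25 (SE; adjusted p = 2.8e-10). Il18rap measured 2.56 and 3.15 in inflammatory monocytes and 3.39 and 3.39 in SatM, against 11.75 and 11.82 in neutrophils, 12.40 and 12.30 in basophils and 9.58 and 9.14 in eosinophils. Il18rap encodes the accessory chain of the interleukin-18 receptor, and it differed by -8.04 ± 0.27 (SE; adjusted p = 3e-10).

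Several genes with wide lower gaps were at the floor in every monocyte array. 9830166K06Rik measured 2.30 and 2.30 in inflammatory monocytes and 2.30 and 2.30 in SatM, against 10.29 and 10.53 in neutrophils, 8.31 and 8.35 in basophils and 9.22 and 8.97 in eosinophils, at least 126-fold lower in marrow monocytes (adjusted p = 1.07e-08). Dapk2 measured 2.30 and 2.30 in inflammatory monocytes and 2.30 and 2.30 in SatM, against 7.44 and 7.93 in neutrophils, 8.36 and 8.18 in basophils and 10.33 and 10.36 in eosinophils, at least 88.7-fold lower (adjusted p = 3.24e-06). Dapk2 encodes a calmodulin-regulated kinase, and Baiap3, related to regulators of secretion, was likewise at the floor, at least 40-fold lower (adjusted p = 0.000166). Ffar2 measured 2.56 and 2.54 in inflammatory monocytes and 2.77 and 2.36 in SatM, against 9.89 and 10.13 in neutrophils, 7.99 and 7.68 in basophils and 11.38 and 11.56 in eosinophils. Ffar2 encodes a receptor for short-chain fatty acids, highest in eosinophils, with a difference of -7.21 ± 0.46 (SE; adjusted p = 6.67e-08). Acap1, an Arf GTPase-activating protein gene (-6.51, adjusted p = 1.21e-09), Syne1, a nuclear envelope gene (-7.43, adjusted p = 9.65e-11), Adgrg3, an adhesion receptor gene (-7.80, adjusted p = 1.75e-10), Nedd4, a ubiquitin ligase gene (-7.17, adjusted p = 4.42e-09), and Rab37, a GTPase gene of secretory vesicles (-5.89, adjusted p = 5.32e-10), made up the rest.

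**Figure D1:**
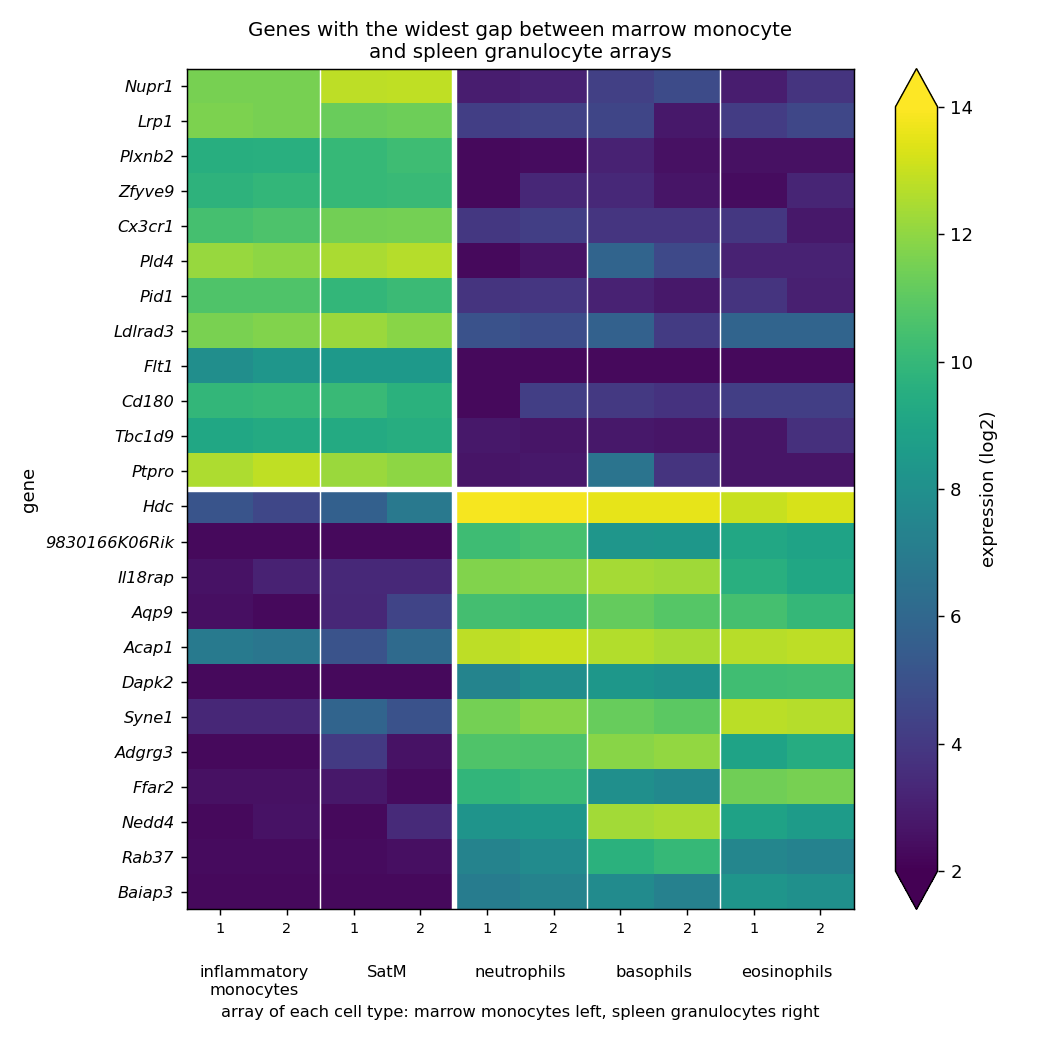
Colour gives the log2 expression of the 12 genes with the widest upper gap (top) and the 12 with the widest lower gap (bottom) on each of the 10 arrays, marrow monocytes left of the thick line and spleen granulocytes right. Genes were picked for this separation; Hdc ran from 4.54 to 6.86 in monocytes and from 12.97 to 13.85 in granulocytes.

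Transcription regulators of the monocyte lineage were partly higher in marrow monocytes. Of 14 tested regulators on a list for monocytes, 8 were called higher and 0 lower, with a median difference of 1.43, against the -0.02 of all tested genes. With cell type as a random block limma called 2 of the 14 higher and 0 lower (5 and 0 at an unadjusted p under 0.05), where it called 1.52% of all tested genes higher and 1.05% lower. Irf8 measured 9.90 and 9.92 in inflammatory monocytes and 9.03 and 9.17 in SatM, against 2.30 and 2.97 in neutrophils, 6.22 and 3.74 in basophils and 2.97 and 3.32 in eosinophils. Pou2f2 measured 8.02 and 8.02 in inflammatory monocytes and 10.40 and 10.69 in SatM, against 2.98 and 3.02 in neutrophils, 3.02 and 3.02 in basophils and 2.30 and 3.04 in eosinophils. Irf8 encodes the interferon regulatory factor needed for monocytes and Pou2f2 the octamer-binding factor OCT2. Pou2f2 ranged only from 2.30 to 3.04 across granulocytes, and the differences were 5.92 ± 0.65 (SE; adjusted p = 1.02e-05) for Irf8 and 6.38 ± 0.29 (SE; adjusted p = 3.32e-09) for Pou2f2. Zeb2 (2.63, adjusted p = 3.51e-06), a zinc finger repressor gene, Nr4a1 (6.01, adjusted p = 3.2e-05), the orphan receptor gene required for patrolling monocytes, and Batf3, Bcl6 and Tfec were also called. The regulators that missed the call were Spi1 (PU.1), Cebpa, Cebpb, Irf5, Runx3 and Id2. Inflammatory monocytes by themselves had 9 of the 14 called higher and 0 lower (median 2.35), and SatM 6 and 2 (median 0.58). Of all tested genes 15.2% and 12.6% were called for inflammatory monocytes, and 14.5% and 18.3% for SatM.

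Of 9 tested regulators on a list for granulocytes, 4 were called lower and 1 higher (median -0.83), and with the random block 1 lower and 0 higher, with 4 and 0 at an unadjusted p under 0.05 by limma. The main fit called 15.8% of all tested genes lower and 15.5% higher. Gfi1 measured 2.40 and 2.40 in inflammatory monocytes and 2.40 and 2.41 in SatM, against 5.46 and 6.73 in neutrophils, 6.48 and 6.36 in basophils and 8.62 and 8.73 in eosinophils. Gfi1 encodes a repressor needed for neutrophils, and it differed by -4.66 ± 0.43 (SE; adjusted p = 2.1e-06). Gata2 measured 3.21 and 3.14 in inflammatory monocytes and 3.21 and 3.14 in SatM, against 4.80 and 5.79 in neutrophils, 13.80 and 13.96 in basophils and 7.84 and 8.06 in eosinophils. Gata2, a regulator of basophils and mast cells, was high in basophils and only 4.80 and 5.79 in neutrophils, and its difference was -5.87 ± 0.25 (SE; adjusted p = 2.06e-09). The others called lower were Gata1 and Ikzf2, and Mitf was called higher.

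Growth factor and cytokine receptor genes divided in both directions, with 13 of 23 called higher and 7 lower (median 1.24), and 2 and 1 with the random block. The main fit called 15.5% of all tested genes higher and 15.8% lower. Against neutrophils alone 5 were called higher and 10 lower (median -0.20), where 20.3% and 16.2% of tested genes were called. Counts were 14 and 6 against basophils (12.2% and 14.9%) and 13 and 5 against eosinophils (16.9% and 19.5%). Csf1r measured 14.29 and 14.52 in inflammatory monocytes and 14.49 and 14.44 in SatM, against 13.41 and 13.44 in neutrophils, 10.83 and 9.17 in basophils and 12.55 and 11.94 in eosinophils. Csf1r, the receptor for the monocyte growth factor CSF1, was high in the neutrophil arrays too: the difference was 2.54 ± 0.53 (SE; adjusted p = 0.00178) against all granulocytes and 1.01 against neutrophils alone (adjusted p = 0.3). Il10ra measured 8.9998 and 9.25 in inflammatory monocytes and 10.18 and 10.51 in SatM, against 6.49 and 6.05 in neutrophils, 5.65 and 3.12 in basophils and 2.85 and 2.44 in eosinophils. Tnfrsf1b measured 11.45 and 11.58 in inflammatory monocytes and 12.55 and 12.42 in SatM, against 9.65 and 9.27 in neutrophils, 8.08 and 8.08 in basophils and 7.28 and 7.15 in eosinophils. Il10ra, for the interleukin-10 receptor, and Tnfrsf1b, for a TNF receptor, did not overlap between the sides and differed by 5.30 ± 0.61 (SE; adjusted p = 1.56e-05) and 3.75 ± 0.26 (SE; adjusted p = 1.55e-07). Both chains of the interleukin-18 receptor were lower, Il18r1 with a difference of -6.48 ± 0.33 (SE; adjusted p = 9.65e-09) and levels of 2.60 to 2.66 in the marrow monocyte arrays, against 4.35 to 12.20 in the granulocyte arrays. The other receptor genes called lower were Csf2rb2, Il5ra, Il3ra, Kit and Il1r2.

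Csf3r, the receptor for the neutrophil growth factor G-CSF, showed how the mean over granulocytes can hide a type. Csf3r measured 8.53 and 8.65 in inflammatory monocytes and 8.48 and 8.93 in SatM, against 12.21 and 11.94 in neutrophils, 5.64 and 4.84 in basophils and 3.87 and 5.65 in eosinophils. It was called higher against the mean of the granulocytes (1.29, adjusted p = 0.0478), against basophils (3.41) and against eosinophils (3.89), and lower against neutrophils (-3.43, adjusted p = 0.000945). Monocytes thus lay between neutrophils and the other granulocytes, and the groups overlapped. These comparisons share the monocyte arrays.

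Of 29 tested genes on the wider monocyte identity list, which holds the 4 markers, 27 were called higher and 0 lower, and 19 had arrays all above the granulocytes (median 5.75). Over all tested genes 15.5% were called higher, and 9.03% had arrays all above. The random block left 11 of the 29 called higher and 0 lower, with 21 and 0 at an unadjusted p under 0.05 by limma. The remaining members, Emb and Tgfbi, were not called. Inflammatory monocytes by themselves had 29 called higher and 0 lower (15.2% and 12.6% of tested genes), and SatM 23 and 2 (14.5% and 18.3%). Against neutrophils alone 21 were called higher and 1 lower (20.3% and 16.2% of tested genes). Against basophils the counts were 24 and 2 (12.2% and 14.9%), and against eosinophils 25 and 0 (16.9% and 19.5%). Fcgr1 measured 10.15 and 10.39 in inflammatory monocytes and 8.25 and 8.38 in SatM, against 2.78 and 2.78 in neutrophils, 2.80 and 2.41 in basophils and 3.07 and 2.80 in eosinophils. Clec4a3 measured 12.97 and 13.01 in inflammatory monocytes and 13.48 and 13.48 in SatM, against 7.74 and 7.89 in neutrophils, 6.11 and 3.73 in basophils and 5.63 and 4.30 in eosinophils. Fcgr1 encodes the high-affinity IgG receptor CD64 and Clec4a3 a C-type lectin receptor. Fcgr1 lay between 2.41 and 3.07 in every granulocyte array, and the differences were 6.52 ± 0.50 (SE; adjusted p = 4.12e-07) and 7.33 ± 0.58 (SE; adjusted p = 4.91e-07). Called with them were Ctss, Lyz2, Cd68, Cybb, Mpeg1, Ly86, F13a1, Fn1, Ace and Treml4.

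Adgre1, which encodes an adhesion receptor of macrophages, is on that list and also marks mouse eosinophils. Adgre1 measured 10.29 and 10.36 in inflammatory monocytes and 11.13 and 10.89 in SatM, against 8.29 and 8.39 in neutrophils, 5.66 and 4.19 in basophils and 11.03 and 10.45 in eosinophils. It was called higher against all granulocytes (2.67, adjusted p = 0.000137), while the difference from eosinophils alone was -0.07 and not called.

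**Figure D2:**
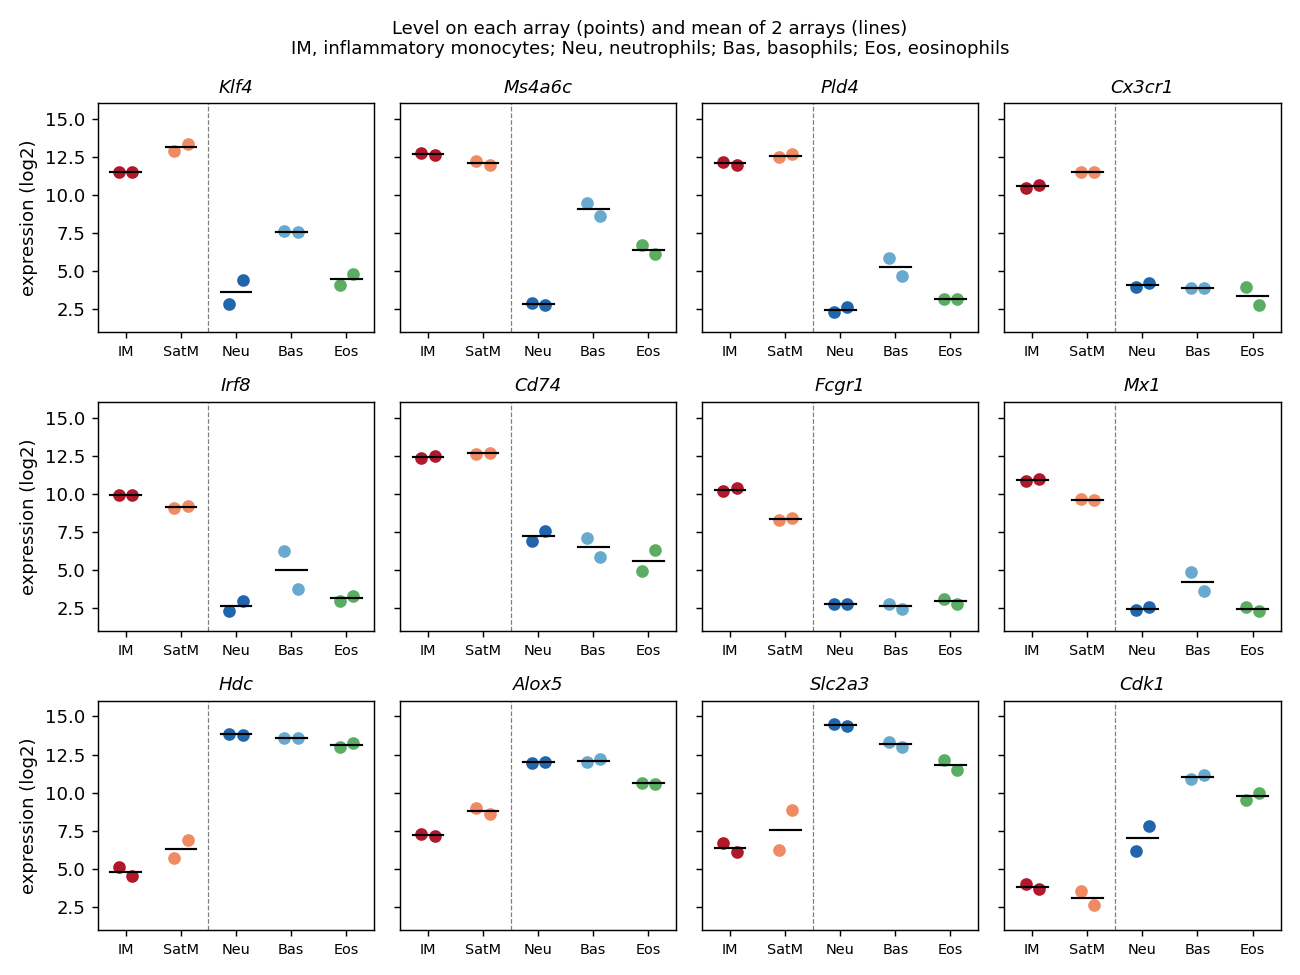
Each panel gives the log2 expression of 1 gene on each array (points) and the mean of the 2 arrays of a cell type (lines), with marrow monocytes left of the dashed line and spleen granulocytes right. Klf4, Irf8, Cd74, Fcgr1 and Mx1 were high in both monocyte types, and Hdc, Alox5 and Slc2a3 were high in all 3 granulocyte types. Cdk1 was high in basophils and eosinophils and lower in neutrophils. None of the 12 genes overlapped between the sides.

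Antigen presentation genes were higher in marrow monocytes. Of 15 tested MHC class II presentation genes, 10 were called higher, each with arrays all above the granulocytes, and 1 (H2-Oa) lower (median 3.47). Arrays lay all above for 9.03% of all tested genes. The random block left 5 of the 15 called higher and 0 lower, with 9 and 1 at an unadjusted p under 0.05 by limma. Cd74 measured 12.35 and 12.47 in inflammatory monocytes and 12.61 and 12.68 in SatM, against 6.92 and 7.58 in neutrophils, 7.12 and 5.84 in basophils and 4.92 and 6.30 in eosinophils. Cd74 encodes the invariant chain that guards class II molecules, and its difference was 6.08 ± 0.59 (SE; adjusted p = 3.25e-06). H2-Eb1 measured 9.22 and 9.84 in inflammatory monocytes and 8.97 and 9.03 in SatM, against 2.68 and 5.14 in neutrophils, 5.59 and 3.29 in basophils and 3.29 and 5.34 in eosinophils. The class II beta chain gene H2-Eb1 varied among granulocyte arrays and differed by 5.04 ± 0.73 (SE; adjusted p = 0.00011). Cd83 measured 6.97 and 7.14 in inflammatory monocytes and 12.45 and 12.67 in SatM, against 3.18 and 3.55 in neutrophils, 3.46 and 2.30 in basophils and 2.68 and 3.22 in eosinophils. Cd83, a gene of activated antigen-presenting cells, was far higher in SatM than in inflammatory monocytes and differed by 6.75 ± 0.88 (SE; adjusted p = 4.36e-05) overall. Lgmn, a lysosomal protease gene, differed by 5.03 ± 0.20 (SE; adjusted p = 1.05e-09), and H2-Aa, H2-Ab1, H2-DMa, Ifi30, Ctss and Cd86 were called higher too.

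Lysosome and phagocytosis genes followed with 15 of 26 called higher and 1 lower, Ctsd, which encodes cathepsin D (median 1.17). Of the 26, limma called 6 higher and 0 lower with the random block, and 12 and 0 at an unadjusted p under 0.05. Cd68 measured 12.16 and 12.06 in inflammatory monocytes and 12.76 and 12.69 in SatM, against 9.34 and 8.95 in neutrophils, 6.52 and 5.52 in basophils and 4.32 and 4.68 in eosinophils. Ctsa measured 10.96 and 10.83 in inflammatory monocytes and 11.37 and 11.42 in SatM, against 8.40 and 8.05 in neutrophils, 7.64 and 7.504 in basophils and 8.45 and 8.43 in eosinophils. Cd68 encodes a lysosomal membrane protein of phagocytes and Ctsa a lysosomal carboxypeptidase. Ctsa varied by less than 1 within each side and differed by 3.06 ± 0.15 (SE; adjusted p = 7.55e-09), and Cd68 differed by 5.86 ± 0.47 (SE; adjusted p = 5.18e-07), with neutrophils the nearest granulocytes. Ctsb (2.61, adjusted p = 2.02e-06) and the scavenger receptor gene Msr1 (5.59, adjusted p = 1.91e-08) did not overlap between the sides, and Npc1, Lipa, Psap, Hexa, Lamp1 and Axl were called higher.

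Pattern recognition genes had 15 of 21 called higher and 2, Tlr5 and Ddx58, lower (median 2.35). Of the 21, limma called 2 higher and 0 lower with the random block, and 6 and 0 at an unadjusted p under 0.05. Against neutrophils alone, 5 were called higher and 5 lower (median -0.02), where 20.3% of tested genes were called higher and 16.2% lower. Tlr7 measured 8.93 and 9.17 in inflammatory monocytes and 10.16 and 10.33 in SatM, against 6.42 and 6.84 in neutrophils, 2.71 and 2.31 in basophils and 2.31 and 2.30 in eosinophils. Tlr7, a sensor of single-stranded RNA, differed by 5.84 ± 0.36 (SE; adjusted p = 5.93e-08) without overlap. Tlr4 measured 8.59 and 8.72 in inflammatory monocytes and 8.32 and 7.89 in SatM, against 10.12 and 10.07 in neutrophils, 3.67 and 2.73 in basophils and 2.89 and 3.495 in eosinophils. Tlr4, the lipopolysaccharide receptor gene, was called higher against the granulocyte mean (2.89, adjusted p = 0.000609), while its level was highest in neutrophils and the difference from them was -1.71 (adjusted p = 0.0671). Tlr2, for a lipoprotein receptor, behaved alike, with 9.81 to 10.499 in the marrow monocyte arrays, against 3.35 to 11.23 in the granulocyte arrays, where the neutrophil arrays measured 11.23 and 10.98. Cd180, Tlr1 and Ly96 were higher without overlap.

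Of 8 Fc receptor genes, 4 were called higher and 2 lower, and limma called 1 and 0 with the random block (3 and 1 at an unadjusted p under 0.05). The main fit called 15.5% of all tested genes higher and 15.8% lower. Fcgrt measured 8.34 and 8.15 in inflammatory monocytes and 10.37 and 10.04 in SatM, against 2.80 and 3.31 in neutrophils, 5.64 and 3.28 in basophils and 3.35 and 3.28 in eosinophils. Fcgrt, the neonatal Fc receptor gene, differed by 5.62 ± 0.36 (SE; adjusted p = 7.21e-08). Fcgr2b, for the inhibitory IgG receptor, differed by 1.40 ± 0.24 (SE; adjusted p = 0.000361), and Fcgr4 was called higher. The lower pair were the IgE receptor chain genes. Ms4a2 measured 2.30 and 2.30 in inflammatory monocytes and 2.30 and 2.30 in SatM, against 3.24 and 4.25 in neutrophils, 13.80 and 13.80 in basophils and 8.59 and 9.05 in eosinophils. Ms4a2 did not leave the floor in monocytes and was at least 89.9-fold lower (adjusted p = 2.76e-10). Fcer1a measured 2.30 and 2.30 in inflammatory monocytes and 2.30 and 2.30 in SatM, against 2.30 and 2.30 in neutrophils, 13.57 and 13.93 in basophils and 5.24 and 5.89 in eosinophils, so Fcer1a was at the floor in neutrophils as in monocytes.

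Chemokine receptor genes split by type. Ccr2 measured 12.85 and 13.27 in inflammatory monocytes and 11.71 and 11.70 in SatM, against 3.04 and 3.38 in neutrophils, 10.52 and 9.68 in basophils and 5.58 and 4.80 in eosinophils. Ccr2, which guides monocytes out of the marrow, was high in basophils too and differed by 6.21 ± 0.20 (SE; adjusted p = 2.55e-10) without overlap. Ccr1 measured 7.32 and 7.42 in inflammatory monocytes and 2.55 and 2.55 in SatM, against 12.26 and 12.10 in neutrophils, 10.68 and 10.57 in basophils and 8.19 and 7.94 in eosinophils. Ccr1 binds inflammatory chemokines and was lower in marrow monocytes, with a difference of -5.33 ± 0.35 (SE; adjusted p = 9.42e-08), with SatM lower than inflammatory monocytes. Cxcr2 measured 2.30 and 2.30 in inflammatory monocytes and 2.30 and 2.30 in SatM, against 11.94 and 11.32 in neutrophils, 8.53 and 7.47 in basophils and 2.30 and 2.30 in eosinophils, which left this neutrophil chemokine receptor gene at the floor in eosinophils as in monocytes. Of 7 chemokine receptor genes 2 were called higher and 3 lower, and limma called 1 and 0 with the random block (2 and 2 at an unadjusted p under 0.05). The main fit called 15.5% of all tested genes higher and 15.8% lower.

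Of 21 cytokine and chemokine genes, 4 were called higher (Il1b, Il18, Ccl2 and Ccl9) and 7 lower (Il1rn, Il4, Il6, Tnfsf14, Csf1, Osm and Ccl4), with a median of -0.14. Of all tested genes 15.5% were called higher and 15.8% lower. None of the 21 was called by limma with the random block, where 1 was higher and 3 lower at an unadjusted p under 0.05. Ccl2 measured 8.23 and 8.93 in inflammatory monocytes and 5.37 and 5.25 in SatM, against 3.80 and 3.80 in neutrophils, 3.77 and 3.63 in basophils and 3.80 and 3.80 in eosinophils. Ccl2, a monocyte-attracting chemokine, differed by 3.18 ± 0.35 (SE; adjusted p = 1.05e-05). Osm measured 8.25 and 8.47 in inflammatory monocytes and 6.25 and 5.84 in SatM, against 12.19 and 12.23 in neutrophils, 12.31 and 11.46 in basophils and 9.66 and 9.65 in eosinophils. Osm, which encodes oncostatin M, differed by -4.05 ± 0.42 (SE; adjusted p = 5.83e-06). Il1b measured 7.07 and 7.91 in inflammatory monocytes and 11.20 and 11.31 in SatM, against 13.21 and 12.88 in neutrophils, 6.14 and 4.49 in basophils and 3.20 and 3.23 in eosinophils. Il1b was called higher against the granulocyte mean (2.18, adjusted p = 0.00701) and lower against neutrophils (-3.68, adjusted p = 0.00159), where its level was highest.

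Genes for lipid mediators and histamine were lower in marrow monocytes: 8 of 15 were called lower and 2, Cysltr1 and Ptger2, higher (median -1.60). Of the 15, limma called 2 lower and 0 higher with the random block, and 6 and 2 at an unadjusted p under 0.05. Alox5 measured 7.26 and 7.18 in inflammatory monocytes and 8.999 and 8.58 in SatM, against 11.97 and 12.04 in neutrophils, 12.01 and 12.21 in basophils and 10.65 and 10.59 in eosinophils. Ptges measured 4.65 and 4.65 in inflammatory monocytes and 2.30 and 2.30 in SatM, against 7.48 and 7.88 in neutrophils, 6.18 and 6.57 in basophils and 7.25 and 8.30 in eosinophils. Alox5 encodes the lipoxygenase that starts leukotriene synthesis and Ptges a prostaglandin E synthase. Neither overlapped between the sides, and the differences were -3.57 ± 0.23 (SE; adjusted p = 8.59e-08) and -3.81 ± 0.41 (SE; adjusted p = 7.52e-06). Lta4h, for leukotriene A4 hydrolase, differed by -2.11 ± 0.25 (SE; adjusted p = 1.64e-05), and Alox15, Ptgs2, Tbxas1 and the histamine receptor gene Hrh4 were called lower with Hdc.

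Most granule and effector genes of neutrophils and basophils were lower in marrow monocytes, while those of eosinophils depended on the monocyte type. Of 15 neutrophil genes 11 were called lower and 1, Csf3r, higher (median -3.03), a higher call lost under several alternatives. The random block left 1 lower and 0 higher, with 8 and 0 at an unadjusted p under 0.05 by limma. Wfdc21 measured 4.29 and 3.92 in inflammatory monocytes and 4.64 and 4.99 in SatM, against 13.39 and 13.29 in neutrophils, 10.40 and 8.93 in basophils and 8.71 and 8.93 in eosinophils. Mmp9 measured 2.76 and 3.005 in inflammatory monocytes and 7.91 and 7.98 in SatM, against 14.14 and 13.97 in neutrophils, 10.07 and 8.98 in basophils and 10.91 and 10.04 in eosinophils. Ltf measured 5.65 and 4.68 in inflammatory monocytes and 9.03 and 10.14 in SatM, against 14.34 and 14.37 in neutrophils, 12.12 and 11.24 in basophils and 10.58 and 11.02 in eosinophils. Wfdc21 encodes a small secreted protein, Mmp9 a gelatinase and Ltf lactoferrin. All were highest in neutrophils and high in basophils and eosinophils, SatM stood above inflammatory monocytes for Mmp9 and Ltf, and the differences were -6.15 ± 0.56 (SE; adjusted p = 1.66e-06), -5.94 ± 0.56 (SE; adjusted p = 2.28e-06) and -4.91 ± 0.84 (SE; adjusted p = 0.00038). S100a8, a calcium-binding protein gene of neutrophils and monocytes, reached 11.44 to 13.87 in the marrow monocyte arrays, against 13.57 to 15.29 in the granulocyte arrays, a difference of -1.85 ± 0.52 (SE; adjusted p = 0.0107) with overlap.

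All 14 tested basophil and mast cell genes were called lower and 9 lay below without overlap (median -4.15). Arrays lay all below for 7.45% of all tested genes. The random block left 1 lower and 0 higher, again with 8 and 0 at an unadjusted p under 0.05 by limma. Mcpt8 measured 2.62 and 2.62 in inflammatory monocytes and 2.62 and 4.53 in SatM, against 6.63 and 7.95 in neutrophils, 14.91 and 14.91 in basophils and 9.06 and 8.89 in eosinophils. Cpa3 measured 2.30 and 2.30 in inflammatory monocytes and 2.30 and 2.30 in SatM, against 3.73 and 6.62 in neutrophils, 13.85 and 13.91 in basophils and 9.34 and 9.05 in eosinophils. Mcpt8 encodes the basophil protease and Cpa3 mast cell carboxypeptidase, and both were also raised in eosinophil arrays and measurable in neutrophil arrays. The difference for Mcpt8 was -7.29 ± 0.34 (SE; adjusted p = 3.97e-09), and Cpa3, at the floor throughout the monocytes, was at least 139-fold lower (adjusted p = 9.02e-08). Cd200r3 measured 2.30 and 2.30 in inflammatory monocytes and 2.30 and 2.30 in SatM, against 2.34 and 2.30 in neutrophils, 12.52 and 12.62 in basophils and 2.30 and 2.30 in eosinophils, so this activating receptor gene was high in basophil arrays and at or near the floor elsewhere. Against neutrophils alone, 7 of the 14 were called lower, where 16.2% of tested genes were.

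Of 9 eosinophil genes 7 were called lower and 1, Adgre1, higher (median -2.26), but the monocyte types differed. For inflammatory monocytes 1 was called higher and 8 lower than in the granulocytes (median -5.48), where 15.2% and 12.6% of tested genes were called. For SatM 5 were called higher and 4 lower (median 1.09), where 14.5% and 18.3% were called. The mean of the list per array was 3.41 and 3.42 in inflammatory monocytes and 7.59 and 6.70 in SatM, against 4.67 and 4.76 in neutrophils, 7.19 and 6.44 in basophils and 11.57 and 11.04 in eosinophils. SatM thus lay above neutrophils, near basophils and below eosinophils. Over both monocyte types the random block left 1 lower and 0 higher, the same numbers as at an unadjusted p under 0.05 by limma. Siglecf measured 3.33 and 2.96 in inflammatory monocytes and 4.90 and 4.68 in SatM, against 8.80 and 8.64 in neutrophils, 9.34 and 8.34 in basophils and 12.16 and 11.78 in eosinophils. Siglecf encodes the eosinophil surface lectin and differed by -5.87 ± 0.25 (SE; adjusted p = 1.88e-09). Epx measured 2.30 and 2.30 in inflammatory monocytes and 11.11 and 8.62 in SatM, against 2.30 and 2.30 in neutrophils, 6.88 and 6.22 in basophils and 14.49 and 14.49 in eosinophils. Prg2 measured 2.30 and 2.30 in inflammatory monocytes and 12.69 and 11.51 in SatM, against 2.69 and 2.90 in neutrophils, 9.02 and 8.17 in basophils and 14.0004 and 14.15 in eosinophils. Epx encodes eosinophil peroxidase and Prg2 the major basic protein, and both were at the floor in inflammatory monocytes but high in SatM. Prg2 was not called (-1.29, adjusted p = 0.102) and Epx was (-1.70, adjusted p = 0.0126), with opposite signs for the monocyte types: the difference from granulocytes was 2.09 for SatM and -5.48 for inflammatory monocytes. The eosinophil receptor gene Il5ra was at the floor in all 4 monocyte arrays, SatM included, and measured 10.20 and 9.38 in eosinophils. In single SatM arrays of another panel of the series, Prg2 measured 11.78 in marrow, 4.08 in spleen and 2.30 in both blood and lung, and Epx 9.27 in marrow and 2.30 in the others, with Il5ra at the floor in all 4. Among the SatM arrays, both were thus high in those from marrow, and the part of eosinophil-lineage cells in them was not tested.

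Interferon-stimulated genes were higher on average, 15 of 20 called higher and 0 lower (median 1.86). With the random block limma called 1 of the 20 higher and 0 lower, and 5 and 0 at an unadjusted p under 0.05. Mx1 measured 10.81 and 10.96 in inflammatory monocytes and 9.68 and 9.56 in SatM, against 2.37 and 2.56 in neutrophils, 4.85 and 3.60 in basophils and 2.56 and 2.30 in eosinophils. Mx1, an antiviral GTPase gene, differed by 7.21 ± 0.49 (SE; adjusted p = 1.19e-07). Xaf1 measured 9.89 and 9.95 in inflammatory monocytes and 8.24 and 8.76 in SatM, against 7.10 and 7.02 in neutrophils, 5.98 and 5.91 in basophils and 3.68 and 4.53 in eosinophils. Xaf1 differed by 3.51 ± 0.43 (SE; adjusted p = 2.31e-05), and Stat2 and Ifitm3 also showed no overlap. The neutrophil arrays stood apart: against them 3 of the 20 were called higher and 7 lower (median -0.14), where 20.3% and 16.2% of tested genes were called. Called against basophils were 14 and 0 (12.2% and 14.9% of tested genes), and against eosinophils 16 and 0 (16.9% and 19.5%). Of the monocyte types, inflammatory monocytes had 17 called higher and 0 lower against the granulocytes (15.2% and 12.6% of tested genes), and SatM 6 and 2 (14.5% and 18.3%).

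**Figure D3:**
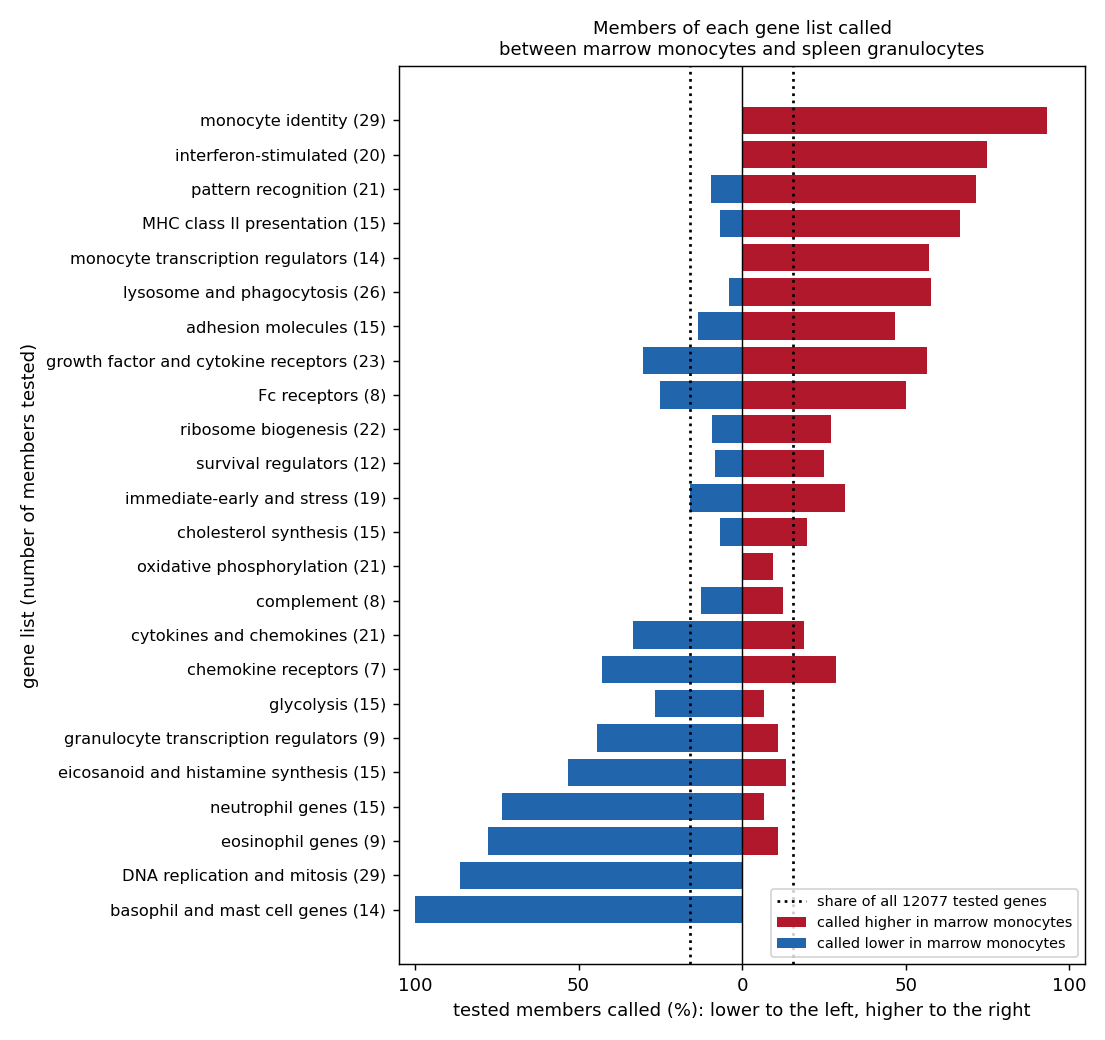
Bars give the percentage of tested members of each gene list called higher (right, red) or lower (left, blue) in marrow monocytes than in spleen granulocytes, and dotted lines mark the 15.5% and 15.8% of all 12077 tested genes. The numbers of members tested stand in parentheses; the lists differ in size and were chosen with results of these data known.

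DNA replication and mitosis genes were lower in marrow monocytes, with 25 of 29 called lower and 0 higher (median -2.59). With the random block limma called 0 of the 29 in either direction, with 13 lower and 0 higher at an unadjusted p under 0.05. Mki67 measured 7.46 and 7.16 in inflammatory monocytes and 8.16 and 7.89 in SatM, against 7.99 and 9.23 in neutrophils, 12.37 and 12.94 in basophils and 11.11 and 11.55 in eosinophils. Cdk1 measured 3.98 and 3.70 in inflammatory monocytes and 3.58 and 2.62 in SatM, against 6.20 and 7.83 in neutrophils, 10.90 and 11.19 in basophils and 9.54 and 10.01 in eosinophils. Top2a measured 5.23 and 5.23 in inflammatory monocytes and 5.51 and 5.53 in SatM, against 6.73 and 7.87 in neutrophils, 10.94 and 11.48 in basophils and 9.80 and 10.08 in eosinophils. Mki67 marks dividing cells, Cdk1 drives entry into mitosis and Top2a untangles replicated DNA, and the differences were -3.20 ± 0.25 (SE; adjusted p = 4.42e-07), -5.81 ± 0.35 (SE; adjusted p = 4.51e-08) and -4.11 ± 0.20 (SE; adjusted p = 5.41e-09). The basophil and eosinophil arrays carried these high levels: 28 and 27 of the 29 genes were called lower against them (14.9% and 19.5% of tested genes), and 10 lower and 6 higher against neutrophils (16.2% and 20.3%). Without the basophil and eosinophil arrays, an alternative chosen after the values were seen, 9 were called lower and 6 higher with a median of 0, where 15.9% and 20.1% of tested genes were called.

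Those same arrays, although labelled spleen basophils and eosinophils, held genes of progenitors and of red cell precursors. Mpo measured 4.98 and 3.38 in inflammatory monocytes and 2.48 and 7.17 in SatM, against 2.83 and 7.45 in neutrophils, 12.504 and 13.31 in basophils and 12.66 and 12.44 in eosinophils. Ctsg measured 3.62 and 3.82 in inflammatory monocytes and 3.86 and 2.30 in SatM, against 3.84 and 6.72 in neutrophils, 13.98 and 14.14 in basophils and 12.03 and 11.38 in eosinophils. Mpo encodes myeloperoxidase and Ctsg cathepsin G, both made in marrow precursors of granulocytes, and both were highest in basophil and eosinophil arrays, with Mpo at 7.45 in 1 neutrophil array and 7.17 in 1 SatM array. Kit measured 2.30 and 2.30 in inflammatory monocytes and 2.30 and 2.30 in SatM, against 4.28 and 5.22 in neutrophils, 2.56 and 2.82 in basophils and 8.41 and 8.21 in eosinophils. Kit encodes the stem cell factor receptor, and it was high in eosinophil arrays but lower in basophil than in neutrophil arrays. Elane, for neutrophil elastase, reached 8.88 and 9.02 in eosinophils, against a mean of 5.39 over all 6 granulocyte arrays. Slc4a1 measured 2.30 and 2.36 in inflammatory monocytes and 2.30 and 2.36 in SatM, against 2.34 and 3.28 in neutrophils, 11.40 and 9.57 in basophils and 8.44 and 8.34 in eosinophils. Slc4a1 encodes the red cell anion exchanger. Of 14 stem and progenitor genes, 12 were called lower in marrow monocytes and 1, Flt3, higher (median -2.73). Of these 14 the random block left 0 called by limma, with 4 lower and 0 higher at an unadjusted p under 0.05. The mean of the list per array was 3.18 to 3.90 in monocytes and 3.81 to 8.00 in granulocytes. Of 6 tested erythroid genes all 6 were called lower, with list means over the 8 on the array of 2.90 to 3.04 in monocytes and 3.24 to 7.91 in granulocytes, and Hba-a1 at the floor throughout. Of those 6 the random block left 0 called by limma, with 3 lower and 0 higher at an unadjusted p under 0.05. The part of these other cells or stages in the replication gene result was not tested. Without the basophil and eosinophil arrays, 3 of the 14 progenitor genes and 1 of the 6 erythroid genes were called lower, where 15.9% of tested genes were.

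**Figure D4:**
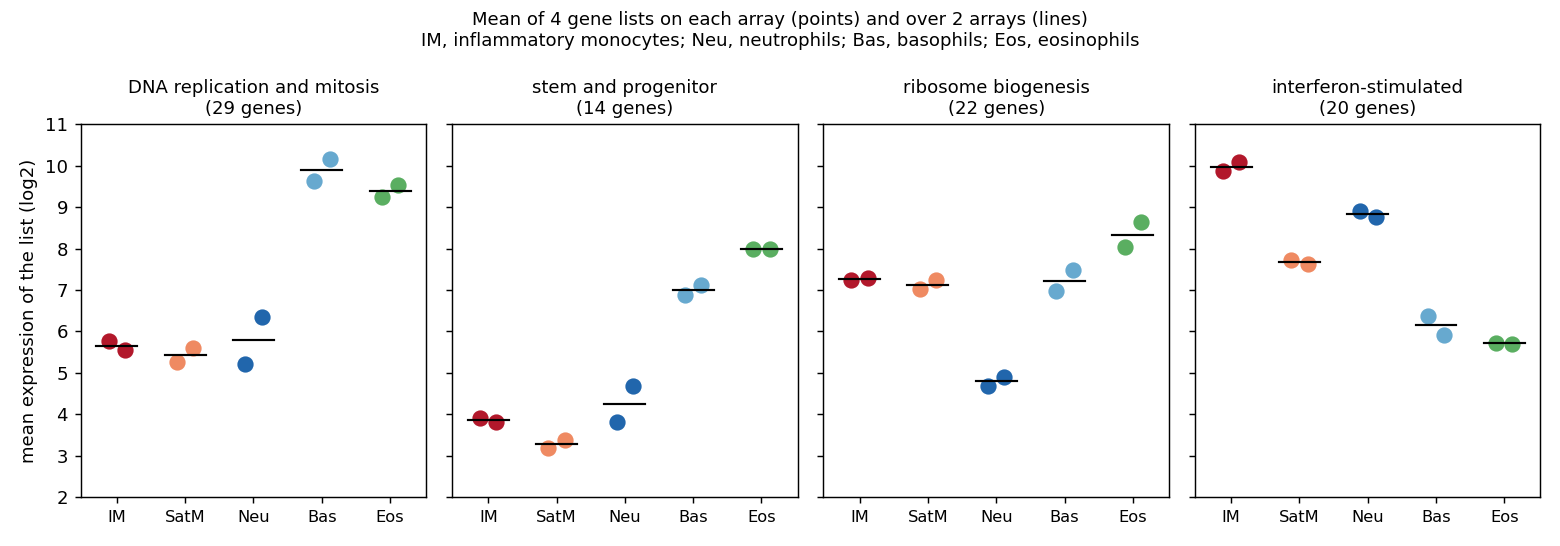
Each point is the mean log2 expression of a gene list on 1 array and each line the mean of the 2 arrays of a cell type, for marrow monocytes (IM, SatM) and spleen granulocytes. Replication and progenitor lists were highest in basophils and eosinophils, ribosome biogenesis was lowest in neutrophils, and the interferon list was highest in inflammatory monocytes and next highest in neutrophils.

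Markers of other cells were also read. Of 9 tested red pulp and tissue macrophage genes, 4 were called lower and 2 higher (1 and 0 with the random block, and 1 in each direction at an unadjusted p under 0.05 by limma), with list means over 12 genes of 3.97 to 4.52 in monocytes and 3.84 to 6.04 in granulocytes. Over all tested genes 15.8% were called lower and 15.5% higher. Slc40a1 measured 4.32 and 4.39 in inflammatory monocytes and 6.24 and 6.32 in SatM, against 13.47 and 13.36 in neutrophils, 9.78 and 8.67 in basophils and 11.40 and 10.91 in eosinophils. Vcam1 measured 2.30 and 2.30 in inflammatory monocytes and 3.33 and 6.45 in SatM, against 7.55 and 9.13 in neutrophils, 10.19 and 5.41 in basophils and 12.57 and 12.43 in eosinophils. Slc40a1 encodes the iron exporter and Vcam1 an adhesion molecule, both abundant in spleen macrophages, and both were highest in neutrophil or eosinophil arrays. C1qb and Cd163 were also called lower in marrow monocytes. Spic and Hmox1 went the other way and were called higher in marrow monocytes. The part of such cells was not tested. Means of the T cell list (11 genes) were 2.297 in every monocyte array and 2.304 to 2.911 in granulocytes, and those of the B cell list 3.54 to 3.72 and 3.11 to 3.85. For NK cell genes (9) they were 2.85 to 3.18 and 2.88 to 4.99, for megakaryocyte genes (10) 2.54 to 3.12 and 3.13 to 5.26, for stromal genes (11) 2.33 to 2.83 and 2.86 to 4.19, and for dendritic cell genes (10) 4.48 to 5.15 and 3.06 to 4.65. Pax5, Blk, Cd4, Cd8b1, Ncr1 and Eomes were at the floor on all 10 arrays, as were Xcr1, Gp5 and Col1a2. Other members were called. Higher in marrow monocytes were Cd79b, Vwf and 5 of 8 tested dendritic cell genes (Flt3, Bst2, Cd209a, Dpp4 and Tcf4). Lower were Cd3d, Gzmb, Nkg7, 4 megakaryocyte genes and 3 stromal genes. The random block left 1 dendritic cell gene called higher by limma and 0 genes of the other 5 lists.

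Metabolic and housekeeping lists moved less. Their counts stand beside 15.5% of all tested genes called higher and 15.8% lower. Of 22 ribosome biogenesis genes 6 were called higher and 2 lower (median 0.31), but 17 were called higher and 1 lower against neutrophils (20.3% and 16.2% of tested genes) and 0 and 9 against eosinophils (16.9% and 19.5%). By limma with the random block 0 of the 22 were called, also at an unadjusted p under 0.05. Of 21 oxidative phosphorylation genes 2 (Uqcrfs1 and Uqcrc1) were called higher and 0 lower, and by limma with the random block 0 (2 higher and 0 lower at an unadjusted p under 0.05). Glycolysis had 4 of 15 lower and 1, Pfkl, higher (median -0.58), and by limma with the random block 1 and 0 (5 and 0 at an unadjusted p under 0.05). Slc2a3 measured 6.68 and 6.10 in inflammatory monocytes and 6.26 and 8.88 in SatM, against 14.53 and 14.40 in neutrophils, 13.34 and 13.01 in basophils and 12.17 and 11.48 in eosinophils. Ldha measured 10.83 and 10.96 in inflammatory monocytes and 10.54 and 10.498 in SatM, against 12.37 and 12.37 in neutrophils, 12.32 and 12.33 in basophils and 12.31 and 12.32 in eosinophils. Slc2a3 encodes the glucose transporter GLUT3 and Ldha a subunit of lactate dehydrogenase. Ldha was nearly level across the 6 granulocyte arrays and was lower in all 4 monocyte arrays, with a difference of -1.63 ± 0.17 (SE; adjusted p = 6.32e-06), and Slc2a3 differed by -6.18 ± 0.40 (SE; adjusted p = 9.17e-08). The hexokinase genes Hk3 (-3.52, adjusted p = 1.41e-06) and Hk1 (-2.30, adjusted p = 2.02e-05) were lower too. Of 15 cholesterol synthesis genes 3 were called higher and 1 lower (by limma with the random block 1 and 0, as at an unadjusted p under 0.05), with the sterol sensor partner gene Insig1 at 11.91 to 12.08 in the marrow monocyte arrays, against 9.08 to 10.19 in the granulocyte arrays (2.45, adjusted p = 6.8e-07).

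Adhesion genes had 7 of 15 called higher and 2 lower, with Itga4 (1.95, adjusted p = 1.51e-05), an integrin subunit gene, and Icam1 (2.05, adjusted p = 2.05e-05) free of overlap. Over all tested genes 15.5% were called higher and 15.8% lower, so the lower count lay near the share of all genes. By limma with the random block 0 of the 15 were called, with 3 higher and 0 lower at an unadjusted p under 0.05. Of 19 immediate-early and stress genes 6 were called higher and 3 lower (median -0.06), where 15.5% and 15.8% of all tested genes were called. With the random block 1 was called in each direction, and well-separated members moved in opposite directions. Atf3 measured 11.19 and 11.46 in inflammatory monocytes and 11.42 and 11.49 in SatM, against 8.04 and 7.86 in neutrophils, 5.10 and 3.88 in basophils and 3.83 and 3.39 in eosinophils. Egr1 measured 7.46 and 7.66 in inflammatory monocytes and 10.90 and 10.05 in SatM, against 12.51 and 12.37 in neutrophils, 13.99 and 13.55 in basophils and 12.37 and 12.38 in eosinophils. Atf3 is a stress-induced factor and Egr1 an early growth response factor, and their differences were 6.04 ± 0.49 (SE; adjusted p = 6.04e-07) and -3.84 ± 0.79 (SE; adjusted p = 0.00159). Of 12 survival regulators 3 were called higher and 1, Bcl2l1, lower, and the proapoptotic genes Bak1 (1.44, adjusted p = 0.000204) and Bcl2l11 (2.46, adjusted p = 1.76e-05) lay above without overlap. Complement genes had 1 of 8 called in each direction. The survival and complement counts stand beside 15.5% of all tested genes called higher and 15.8% lower. By limma with the random block 0 of the 12 survival genes were called (3 higher and 0 lower at an unadjusted p under 0.05) and 0 of the 8 complement genes, also at an unadjusted p under 0.05.

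The granulocyte types did not contribute equally to what separated the sides. Among the 935 genes called higher without overlap, the granulocyte array nearest the monocytes was a basophil array for 387, a neutrophil array for 339 and an eosinophil array for 209. For the 741 called lower it was a neutrophil array for 290, a basophil array for 263 and an eosinophil array for 188. On the monocyte side the nearest array was inflammatory monocyte for 465 and SatM for 470 of the higher genes, and for 511 and 230 of the lower genes. Called against each granulocyte type by itself were 498 of the 935 and 418 of the 741, and the share over all tested genes was not counted. The 935 and 741 genes were chosen for lying apart from every granulocyte array, which favours such calls. The counts therefore only describe the chosen genes and are not a separate result. Among the granulocyte types 478 and 443 also differed, where 51.5% of all tested genes did.

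The contrasts by type, which share arrays and so are set side by side only, called 2450 genes higher (20.3%) and 1954 lower (16.2%) against neutrophils, 36.5% in all. They called 1470 (12.2%) and 1803 (14.9%) against basophils, 27.1% in all, and 2045 (16.9%) and 2358 (19.5%) against eosinophils, also 36.5% in all. Against all granulocytes, inflammatory monocytes had 1839 higher and 1521 lower (27.8% in all) and SatM 1752 and 2210 (32.8% in all). SatM and inflammatory monocytes differed from each other in 347 genes called higher in SatM (2.87%) and 781 called lower (6.47%), 9.34% in all. Of the genes separating the sides, 111 of the 935 and 86 of the 741 were called between these monocyte types.

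Single arrays of SatM from bone marrow and from spleen in another panel of the same series, not used in the comparison, give the levels with the tissue changed. Nupr1 measured 11.45 in the panel's marrow SatM and 12.28 in its spleen SatM, Pld4 11.52 and 12.25, Cx3cr1 9.86 and 10.31, and Klf4 11.66 and 12.16. Flt1 was 6.87 and 8.99 there. Each of these values lay above every spleen granulocyte array. For Hdc the panel arrays measured 8.95 in marrow and 5.61 in spleen, for Dapk2 3.31 and 2.30, and for Aqp9 2.92 and 4.16, below every granulocyte array. For Ffar2 they measured 10.06 in marrow and 4.42 in spleen, and for Ltf 12.93 and 9.80, so the marrow array lay within the granulocyte range for both. The panel marrow array also held Gfi1 at 9.05 and Cdk1 at 9.67, and the panel spleen array had list means of 8.78 over the 7 tested B cell genes, against 3.57 to 4.74 in the granulocyte arrays, and 6.74 over the 5 tested T cell genes, against 2.31 to 3.65, whose part was not tested. These are single arrays with no replicate.

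**Figure D5:**
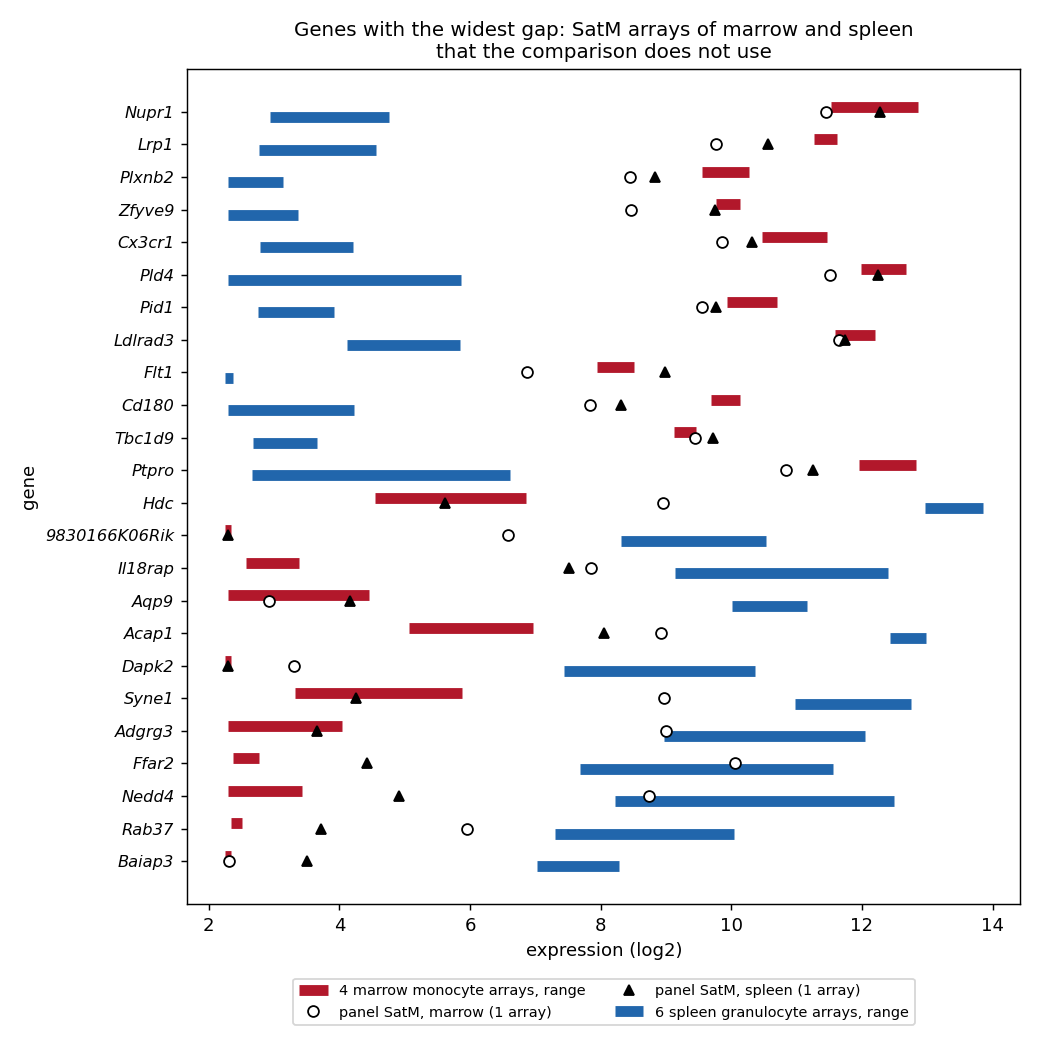
For the 12 widest upper and 12 widest lower genes, bars give the range of log2 expression over the 4 marrow monocyte arrays (red) and the 6 spleen granulocyte arrays (blue), circles the panel's marrow SatM array and triangles its spleen SatM array. For Nupr1 to Ptpro both panel arrays sit to the right of the blue bars, and for Ffar2, Adgrg3 and Nedd4 the marrow panel array sits within the blue bar.

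With spleen on both sides, 3 spleen arrays of that panel labelled as monocytes (SatM, cells negative for Msr1 and Ceacam1, and other Ly6C-negative cells, fitted as 1 class) were set against the same 6 granulocyte arrays. This was a limma fit separate from the main one. Each sort had 1 array, so the p values of this fit count differences between the sorts as spread between replicates. The array negative for Msr1 and Ceacam1 was low for several monocyte genes. It measured 2.30 for Fcgr1, 4.34 for Lrp1, 5.26 for Cx3cr1, 6.29 for Nupr1 and 9.49 for Csf1r, against 7.70, 10.56, 10.31, 12.28 and 13.68 in the spleen SatM array and 9.40, 10.64, 10.49, 11.99 and 13.41 in the other Ly6C-negative array. Its Cd74, at 14.41, was the highest of the 3. Results are therefore given with and without it. Leaving it out was chosen after the values were seen.

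With all 3 arrays, 1699 genes were called higher (14.1%) and 2483 lower (20.6%), 34.6% in all, and the 3 arrays lay above all granulocytes for 1283 genes (10.6%) and below for 1708 (14.1%). Without that array, 1824 were called higher (15.1%) and 2650 lower (21.9%), 37% in all, and the remaining 2 lay above all granulocytes for 13.9% of genes and below for 17.9%. The granulocyte arrays are shared with the marrow comparison, so values stand side by side. Klf4 differed by 6.02 with all 3 arrays (adjusted p = 0.000324), by 6.48 without that array (adjusted p = 0.000627) and by 7.07 in marrow. Pld4 differed by 8.25 (adjusted p = 3.79e-05), 8.59 (adjusted p = 0.000136) and 8.70, and Hdc by -6.85 (adjusted p = 0.000232), -7.60 (adjusted p = 6e-05) and -7.95. Mx1 differed by 7.01 (adjusted p = 0.000214), 6.93 (adjusted p = 0.00106) and 7.21.

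Flt1 and Ffar2 turned on that array. Flt1 measured 8.99 in spleen SatM, 7.70 in the other Ly6C-negative array and 2.32 in the array negative for Msr1 and Ceacam1, and its difference was 4.03 with all 3 arrays (adjusted p = 0.0597) and 6.04 without that one (adjusted p = 0.000245). Ffar2 measured 4.42, 6.73 and 11.46 in the same arrays, with differences of -2.23 (adjusted p = 0.26) and -4.20 (adjusted p = 0.00366). Egr1 was high in all 3, at 14.01, 14.06 and 13.92, and had opposite signs, 1.13 in spleen (1.103 without that array) and -3.84 in marrow.

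By list, MHC class II genes had 14 of 15 called higher and 0 lower in spleen, with and without that array. B cell genes moved with them: 5 of 7 were called higher and 0 lower (median 5.09; 5 and 0 without that array). Of 8 dendritic cell genes 5 were called higher and 0 lower (median 3.56; 4 and 1 without that array). T cell genes had 2 of 5 called higher and 0 lower (median 3.15), and neither call held without that array (median 1.76). The part of such cells in the class II result was not tested. Replication genes had 0 higher and 19 of 29 lower, and 0 and 24 without that array. Interferon-stimulated genes had 6 of 20 called higher and 1 lower (median 0.83), against 15 and 0 in marrow. Without that array they had 6 and 1 (median 0.46). Lysosome and phagocytosis genes had 7 of 26 called higher and 2 lower (11 and 1 without that array), against 15 and 1 in marrow. In spleen 14.1% of all tested genes were called higher and 20.6% lower (15.1% and 21.9% without that array).

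The genes named had 100 other probe sets on the array, of which 70 had a mean over 4 on either side, and all 70 gave the same direction as the chosen one. Differences of 43 of the 89 genes named by rule were not called with cell type as a random block, Ms4a6c (adjusted p = 0.0564), Irf8 (0.0681), Cdk1 (0.059) and Slc2a3 (0.0693) among them, while Nupr1 (0.000852), Flt1 (0.000198), Hdc (0.00141) and Mx1 (0.00343) were.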

How the data were processed

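RNA from sorted mouse cells was hybridised to Affymetrix Mouse430_2 arrays, per the labels' protocols. The deposited table holds log2 values normalized by the authors. The method is not given in the sources used here, and base 2 was inferred from the range of values. The number of arrays limits precision.

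Of 45101 probe sets, 34945 had 1 gene symbol, 932 several and 9160 none, and 64 were controls. For each of 18193 genes the probe set with the highest mean over 35 arrays was used. Genes over the array median on at least 2 of the 20 arrays fitted were tested (12077). limma 3.58.1 in R 4.3.3 (lmFit, contrasts.fit and eBayes with trend) was fitted over 9 cell types with a term for arrays titled WT, with Benjamini-Hochberg adjustment, and was tested on simulated data. Python 3.11.15 with numpy 2.4.6, pandas 2.3.3 and matplotlib 3.10.9 was used for the rest.

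Named were the 4 markers, the 12 genes with the widest gap in each direction and up to 4 genes per list, chosen among called genes without overlap. Further genes (among them Csf3r, Prg2, Epx, Il1b, Tlr4, Mki67 and Mpo) were chosen after their values were seen. The members and lists were chosen with earlier results of these data known. Values within 0.01 of the lowest value count as at the floor. Replicate numbers were not used to pair the arrays in the main fit: deviations of arrays with the same number correlated at -0.049 to 0.163. Correlations were 0.1 to 0.163 between granulocyte types and -0.049 to 0.0485 where a monocyte type was in the pair. Alternatives changed the normalization, the filter, the probe set rule, the model and the arrays included.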

Additional observations from a re-analysis of the deposited data

Results flagged for a closer look

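These genes separated marrow monocytes from spleen granulocytes and also differed between the 2 monocyte types by limma's test of SatM minus inflammatory monocytes, so the size of their difference from granulocytes depends on the monocyte type. Each type had 2 arrays. They are those named by rule, while 111 of the 935 genes called higher without overlap and 86 of the 741 called lower differed in this way. Of all tested genes 9.34% did. The values below are that difference on the log2 scale.

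Among genes lower in SatM, the chemokine receptor gene Ccr1 differed by -4.83 (adjusted p = 8.57e-05), the scavenger receptor gene Msr1 by -3.89 (adjusted p = 0.000186) and the chemokine gene Ccl2 by -3.27 (adjusted p = 0.00182). Ptges differed by -2.35 (adjusted p = 0.0317), Osm by -2.31 (adjusted p = 0.0399) and Ccr2 by -1.35 (adjusted p = 0.0151). The hexokinase genes Hk1 and Hk3 differed by -2.05 (adjusted p = 0.00814) and -1.65 (adjusted p = 0.0485).

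Among these genes the largest difference upward in SatM was that of Cd83, 5.505 (adjusted p = 0.0218), and the granule genes Mmp9 and Ltf followed with 5.06 (adjusted p = 0.00209) and 4.42 (adjusted p = 0.0476). Pou2f2 differed by 2.53 (adjusted p = 0.00261), Syne1 by 2.13 (adjusted p = 0.0011) and Fcgrt by 1.96 (adjusted p = 0.0412). Siglecf differed by 1.65 (adjusted p = 0.0156), Alox5 by 1.57 (adjusted p = 0.0143) and Aqp9 by 1.49 (adjusted p = 0.0276). Hdc differed by 1.47 (adjusted p = 0.0412) and Lgmn by 1.37 (adjusted p = 0.0135). Prg2 and Epx, which did not separate the sides, differed by more, 9.80 and 7.57. SatM thus lay nearer the granulocytes for Mmp9, Ltf, Siglecf, Alox5, Aqp9, Hdc and Syne1, and farther from them for Cd83, Pou2f2, Fcgrt and Lgmn.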

How the results depend on the processing

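Of 3783 genes called, 3441 to 3730 were called with 1 array left out, 3782 with the replicate number as a block and 3760 with quantile normalization, where the higher share was 43.64% against 49.48%. Calls numbered 1364 with 2 classes and no cell type terms, 310 with cell type as a random block and 6404 with every probe set by itself. Genes without overlap numbered 1990, and 2067 to 2309 with 1 array left out. They numbered 3470 without inflammatory monocytes, 3369 without SatM, 3758 without neutrophils, 3062 without basophils and 6675 without basophils and eosinophils (the last chosen after the values were seen), since fewer arrays have to separate. Without inflammatory monocytes, Prg2 differed by 3.61 and Epx by 2.09. Without eosinophils, Csf3r differed by -0.0096, Prg2 by 1.503 and Epx by 1.66. Without basophils and eosinophils, Csf3r differed by -3.43, Prg2 by 4.40, Cd34 by 0.40, Tlr4 by -1.71, Tlr2 by -0.96, Il1b by -3.68 and Epx by 3.79. These signs oppose those over all 10 arrays. None of the 89 genes named by rule reversed under the alternatives run. Their arrays did not overlap between the sides, so leaving out arrays or changing the model could not reverse them. Their kept signs are therefore no check of the result. With 2 classes 8 of them were not called, and with the random block 43. A gene at the floor in a group has only a bound there. Spleen monocyte arrays had 4182 genes called against granulocytes, and 4474 without the array negative for Msr1 and Ceacam1, where Flt1 (6.04) and Ffar2 (-4.20) gained the call.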

Other observations

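The series also holds 4 arrays each of 2 marrow progenitors, cMoP and SMP, and these give the level of the separating genes earlier in the lineage (mean ± SD of log2 values, n = 4 each, over arrays of both title styles, with no test made here). Several genes high in marrow monocytes were high in cMoP. Cd74 measured 10.35 ± 1.40 in cMoP and 6.09 ± 1.49 in SMP, Pld4 10.81 ± 0.46 in cMoP and 3.66 ± 0.95 in SMP and Cx3cr1 8.62 ± 0.40 in cMoP and 4.01 ± 0.28 in SMP. The regulators Klf4 and Irf8 measured 11.81 ± 0.27 in cMoP and 6.81 ± 1.39 in SMP, and 11.55 ± 0.47 in cMoP and 3.84 ± 1.78 in SMP. Flt1 was an exception, at or next to the floor in both, with 2.31 ± 0.01 in cMoP and 2.30 ± 0.00 in SMP.

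Several genes high in spleen granulocytes were high in SMP. Hdc measured 4.77 ± 0.47 in cMoP and 13.78 ± 0.37 in SMP, Aqp9 2.30 ± 0.00 in cMoP and 11.19 ± 0.46 in SMP and Alox5 3.43 ± 0.80 in cMoP and 11.47 ± 0.30 in SMP. Cdk1 was high in both progenitors, with 10.02 ± 0.40 in cMoP and 8.97 ± 0.64 in SMP, and so was Mpo, with 13.20 ± 0.24 in cMoP and 12.04 ± 0.32 in SMP.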
